A study of Mus musculus with 8 samples.

Results

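The Ikaros family of zinc finger transcription factors comprises 5 genes in the mouse: Ikzf1 (Ikaros), Ikzf2 (Helios), Ikzf3 (Aiolos), Ikzf4 (Eos) and Ikzf5 (Pegasus). The members were taken by gene symbol, and each of the 5 had a line among the 29426 gene symbols of the count table and passed the expression filter that kept 12313 genes for testing. The family was singled out because the genotype effect on Ikzf2 depended on the cell subset in these libraries while that of its relatives did so little. That contrast, and the differences of Ikzf2 that make it up, are therefore given as a description with no test.

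RNA libraries, 8 in all and made with a directional kit, came from splenic CD8+ T cells of mice and form 4 groups of 2: mCre-MP, mCre-TN, WT-MP and WT-TN. The mCre and WT labels name genotypes, and the series title joins Cre to miR-29; the allele or transgene, its promoter and the strain were not given in the sources used here. MP and TN name subsets that a cell sorter separated with antibodies to CD44, CD122, CD8 and CD4 and a viability dye, and the design text speaks of TN and VM. Spleens came from adult or neonatal mice, without saying which for a given library. Nor do the labels say that replicate libraries came from separate animals, so p-values measure the spread between these libraries, which may be technical. Total counts ranged from 13479586 to 30057658, and between 14834 and 15722 genes were detected per library. WT-TN replicate 1 had the fewest counts and the most genes detected, and WT-TN replicate 2 the fewest genes, at 18585716 counts. In none of the groups were the replicates alike within sampling noise. Cd44, which encodes a stained marker, averaged 158 ± 7.86 CPM (counts per 1000000 of the scaled library) in mCre-MP, 14.6 ± 2.32 CPM in mCre-TN, 142 ± 4.90 CPM in WT-MP and 14.8 ± 0.805 CPM in WT-TN (SD, n = 2 each). Il2rb, which encodes the stained CD122, averaged 1231 ± 202 CPM in mCre-MP and 187 ± 6.39 CPM in mCre-TN. In WT-MP it averaged 1353 ± 49.8 CPM and in WT-TN 195 ± 13.1 CPM, so both marker genes were higher in MP. Cd8a lay between 1591 and 1808 CPM in the group means, and Cd4 had 10, 6, 7 and 3 counts in mCre-MP, mCre-TN, WT-MP and WT-TN. The miR-29 precursor genes, of which such libraries capture little, could not check the genotype label: Mir29a had 2, 0, 1 and 0 counts in the same order of groups, and Mir29b-2 and Mir29c had 0 counts in each library.

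Proteins of this family bind DNA through zinc fingers near the N-terminus and pair with one another through zinc fingers at the C-terminus, so members can form mixed dimers. They recruit chromatin complexes, above all the NuRD corepressor, and set gene expression during lymphocyte development and differentiation. Ikaros is needed to make lymphocytes and restrains T cell activation. Aiolos acts mainly in mature lymphocytes. Helios is abundant in regulatory T cells and is also found in subsets of CD8+ T cells, while Eos partners with Foxp3 in regulatory T cells. Pegasus is the most divergent and the most widely expressed member. Members with truncated DNA-binding regions arise by splicing, which counts per gene cannot show.

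On GRCm38, Ikzf1 spans chromosome 11 from 11685003 to 11772926 on the plus strand, and Ikzf3 lies on the same chromosome from 98464902 to 98546031 on the minus strand. Ikzf2 spans chromosome 1 from 69531214 to 69687245, Ikzf4 chromosome 10 from 128630843 to 128645991 and Ikzf5 chromosome 7 from 131388652 to 131410521, each on the minus strand. Annotated overlaps are mostly with unnamed transcripts, of which those over Ikzf1, Ikzf2 and Ikzf3 have no line in the table. Gm26876, opposite to Ikzf4, had 1 count over the 8 libraries. Ikzf5 overlaps Pstk on the opposite strand (703, 898, 846 and 614 counts in mCre-MP, mCre-TN, WT-MP and WT-TN), and Fgfr2, on the same strand, had 0, 0, 1 and 2 counts in those groups. The kit keeps strand, but whether the counting used it was not given in the sources used here, so reads of Ikzf5 and Pstk may not be fully separated.

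Because the series is about miR-29, the members' 3' UTRs were searched for its seed match. The mature miR-29 sequences, from RefSeq on GRCm38.p6, share their seed, bases 2 to 8, shown here in capitals.
mmu-miR-29a-3p: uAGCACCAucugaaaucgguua
mmu-miR-29b-3p: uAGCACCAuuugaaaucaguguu
mmu-miR-29c-3p: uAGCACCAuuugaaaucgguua
The DNA letters that pair with that seed are TGGTGCT. They occurred once in the longest annotated 3' UTR of Ikzf1 (3345 bases, sense strand), at chromosome 11, 11772843 to 11772849, where the base that follows them is an A. The site is shown with its flanks because it is the only miR-29 seed match among the 5 members, the seed match in capitals.
Ikzf1 3' UTR site: ctcatgtgcatcTGGTGCTatggcactcac
Among 1431 tested genes with a UTR of like length, 2676 to 4178 bases, 30.5% held the same letters at least once. Ikzf2 held 0 matches in a 3' UTR of 7554 bases, against 50.9% of 212 genes with a UTR of like length that held at least 1. Ikzf3, Ikzf4 and Ikzf5 had 0 matches in 2084, 3205 and 2985 bases, lengths at which 19.9%, 28.7% and 27.1% of genes held one. A match is a description of the letters and not of binding, and its absence says only that these letters are not in the annotated UTR.

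Per kilobase of exon, the members stood in the same order in all 4 groups: Ikzf1, Ikzf3, Ikzf5, Ikzf2 and Ikzf4. Averaged over the groups, Ikzf1 was at 154 CPM per kilobase, Ikzf3 at 20.96, Ikzf5 at 7.45, Ikzf2 at 2.21 and Ikzf4 at 0.444. On this per-length scale Ikzf1 made up 79.9 ± 0.515% of the family in mCre-MP, 85.8 ± 0.526% in mCre-TN, 79.7 ± 0.0517% in WT-MP and 86.3 ± 0.575% in WT-TN (SD, n = 2 each). Ikzf3 made up 14.9 ± 0.305% in mCre-MP and 9.05 ± 0.281% in mCre-TN, and 13.7 ± 0.0623% in WT-MP and 8.61 ± 0.928% in WT-TN. Helios transcripts were a small share throughout, at 0.844 ± 0.0382% in mCre-MP, 1.43 ± 0.0675% in mCre-TN, 1.52 ± 0.144% in WT-MP and 0.992 ± 0.00293% in WT-TN. In bulk RNA, a change in the number of cells that carry a transcript and a change in its amount per cell cannot be told apart.

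Ikzf2 had its highest levels in mCre-TN and its lowest in mCre-MP. Its level was 16.3 and 17.4 CPM in mCre-MP, 34.8 and 32.8 CPM in mCre-TN, 31.5 and 26.7 CPM in WT-MP, and 23.4 and 22.5 CPM in WT-TN. In counts as deposited these were 296 and 422 in mCre-MP, 1063 and 639 in mCre-TN, 729 and 580 in WT-MP, and 316 and 418 in WT-TN. No library of one group overlapped another group; between mCre and WT this held for 48.9% of all genes in MP and 45.8% in TN, and between MP and TN for 67.1% in mCre and 63.9% in WT. From the highest group mean down, the order was mCre-TN, WT-MP, WT-TN and mCre-MP. The step from mCre-TN to WT-MP was the least clear: the lowest mCre-TN library stood 1.32 CPM above the highest WT-MP library, less than the SD of 3.39 CPM between the WT-MP libraries. The lower WT-MP library stood 3.33 CPM above the higher WT-TN library, and the lower WT-TN library 5.09 CPM above the higher mCre-MP library.

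**Figure D1:**
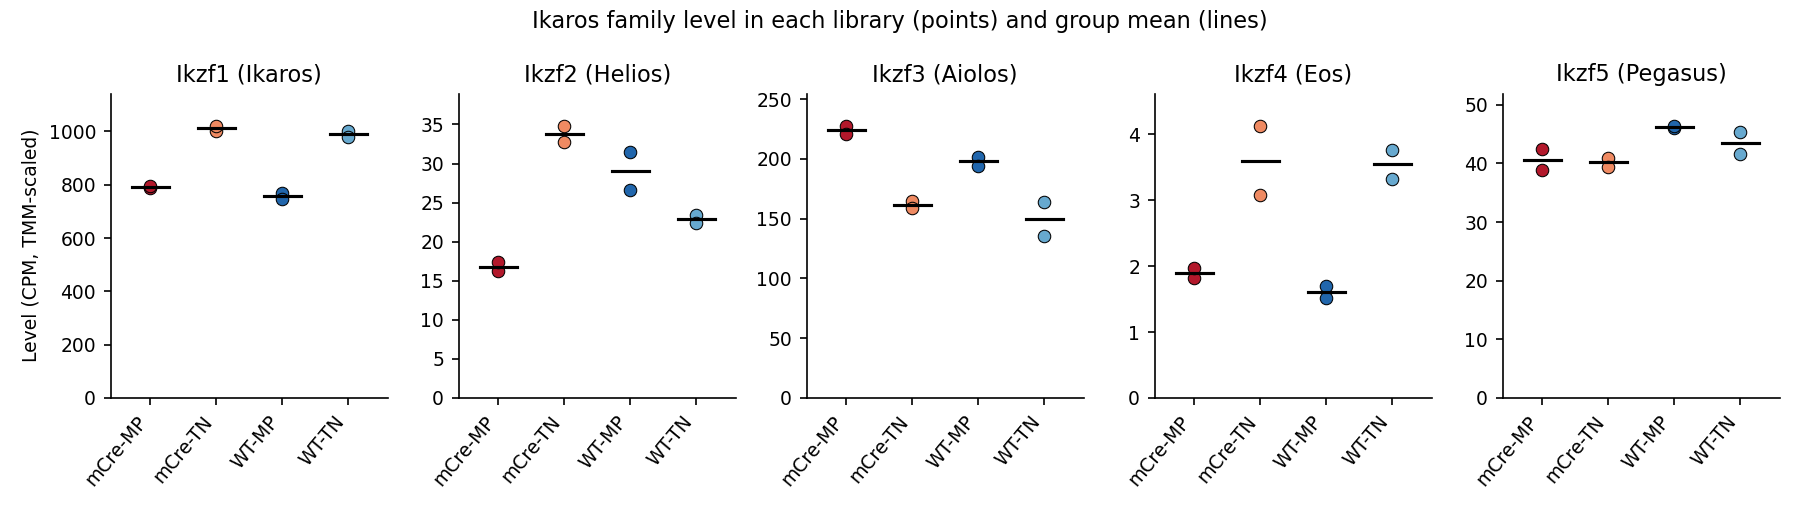
Level of each Ikaros family gene in CPM (scaled by the trimmed mean of M values), 1 panel per gene with its own axis from 0; points are libraries and lines are the means of the 2 libraries of a group. Ikzf2 lies at 16.3 and 17.4 CPM in mCre-MP, against 31.5 and 26.7 CPM in WT-MP, and at 34.8 and 32.8 CPM in mCre-TN, against 23.4 and 22.5 CPM in WT-TN, while Ikzf1 and Ikzf4 are lower, and Ikzf3 higher, in the MP groups than in the TN groups of both genotypes.

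The genotype difference of Ikzf2 pointed in opposite directions in the 2 subsets. In MP cells mCre stood 0.579-fold relative to WT (log2 fold change −0.79, SE 0.096), and in TN cells 1.48-fold (log2 0.57, SE 0.094). Read the other way, MP stood 0.498-fold relative to TN in mCre (log2 −1.01, SE 0.094) and 1.27-fold in WT (log2 0.35, SE 0.096). The last value was 0.23 without WT-MP replicate 1 and 0.46 with the other WT-MP library left out. The difference between the genotype effects, MP minus TN, was −1.35 on the log2 scale (SE 0.13). Across all 12313 genes, 90% of these differences of differences lay between −0.59 and 0.57, genes of low count included. Among the 6490 genes at least as abundant as Ikzf2, 90% lay between −0.17 and 0.17, and in 3 of them, Ikzf2 included, the size reached that of Ikzf2. The background of edgeR calls in this contrast was 0.13% of all genes. Ikzf2 was chosen by this contrast, so its place among other genes restates that choice. Nothing is read here from that place or from the background of calls. Both mCre libraries lay above both WT libraries in TN and below both in MP in 2.2% of all genes, Ikzf2 among them.

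The relatives showed small differences of this kind. The same quantity was 0.031 (SE 0.065) for Ikzf1, 0.067 (SE 0.096) for Ikzf3, 0.21 (SE 0.37) for Ikzf4 and −0.074 (SE 0.10) for Ikzf5 on the log2 scale. For each of these 4 genes the value was smaller than its SE. The Ikzf3 value was −0.081 without WT-TN replicate 1 and 0.20 without WT-TN replicate 2, and the Ikzf4 value 0.44 without mCre-TN replicate 1 and 0.020 with the other mCre-TN library left out. Ikzf4 rested on 33 to 126 counts per library, and its SE is the widest of the family.

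**Figure D2:**
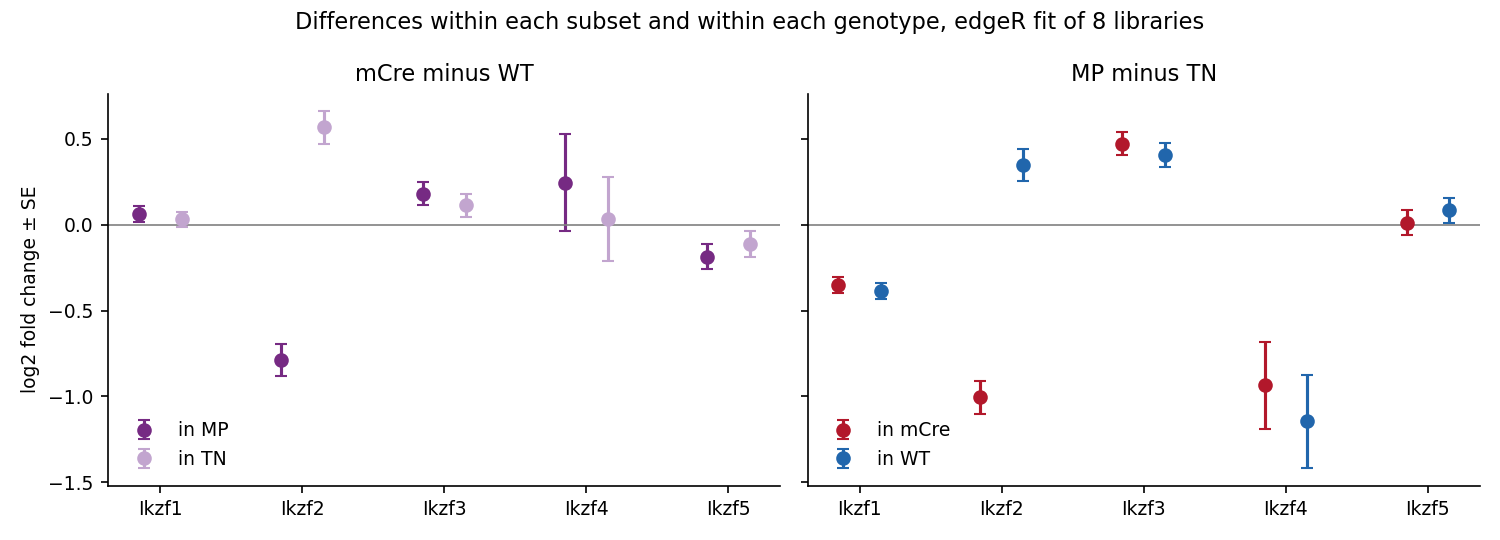
Log2 fold changes with their SE from the edgeR fit of 8 libraries; the left panel gives mCre minus WT in MP (dark) and in TN (light), the right panel MP minus TN in mCre (red) and in WT (blue). Ikzf2 lies at −0.79 in MP and 0.57 in TN on the left and at −1.01 in mCre and 0.35 in WT on the right, while for Ikzf1, Ikzf3 and Ikzf4 both points of a pair lie on the same side of 0 in each panel.

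A ratio within the library, which no library scaling can alter, gave the same picture with a different order at the top. Per 1000 Ikzf1 counts there were 20.7 and 21.8 Ikzf2 counts in mCre-MP, 34.7 and 32.2 in mCre-TN, 40.9 and 35.7 in WT-MP, and 23.3 and 23.0 in WT-TN. WT-MP stood above mCre-TN on this ratio, whereas mCre-TN stood above WT-MP in CPM. The ratio shows unequal amounts of the 2 transcripts and not which of them differed. For Aiolos, the ratio followed the subset: 289 and 278 Ikzf3 counts per 1000 Ikzf1 counts in mCre-MP and 164 and 156 in mCre-TN, and 262 and 260 in WT-MP and 164 and 139 in WT-TN. The ratios of the MP libraries lay above those of the TN libraries in both genotypes.

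**Figure D3:**
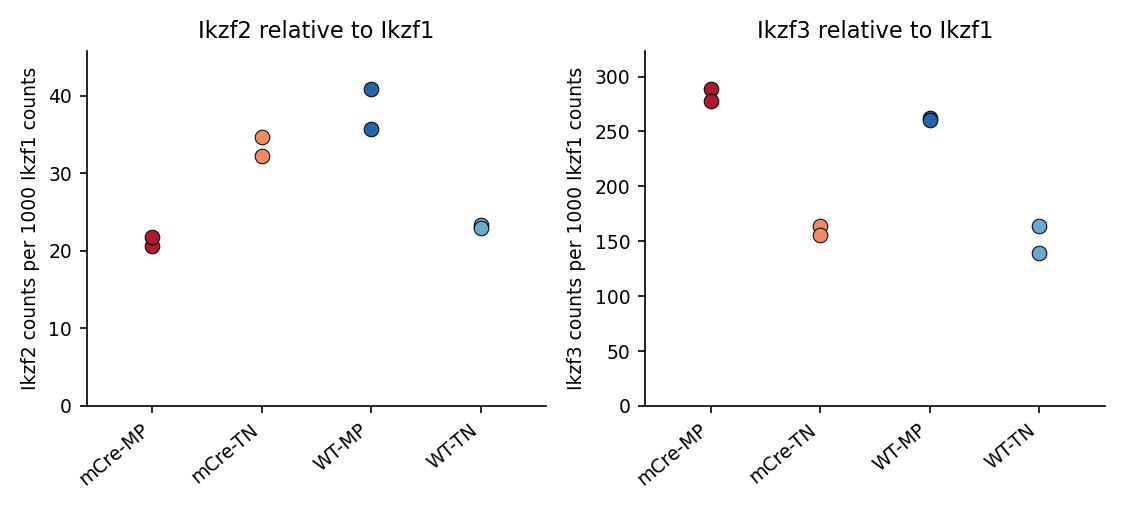
Counts of Ikzf2 (left) and Ikzf3 (right) per 1000 counts of Ikzf1 in each library, axes from 0. The Ikzf2 ratio is 20.7 and 21.8 in mCre-MP, against 40.9 and 35.7 in WT-MP, and the Ikzf3 ratio is at least 260.1 in the MP libraries of both genotypes and at most 164 in the TN libraries.

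Between subsets, 4 of the 5 members passed the test when the MP minus TN differences of both genotypes were averaged. This contrast is not the one that chose the family, but both use the same libraries and the same estimate of spread. The p-values of Ikzf2 in averaged contrasts are thus not free of that choice. Ikzf3 rose, and Ikzf1, Ikzf4 and Ikzf2 fell. The background was high: edgeR called 45.2% of all genes tested in this contrast, 23.3% higher and 22% lower in MP, so a share of 4 in 5 among so few genes says little about the family.

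Ikzf1, the Ikaros gene, was at 788 and 795 CPM in mCre-MP and 1003 and 1019.8 CPM in mCre-TN, and at 770.2 and 747 CPM in WT-MP and 1003 and 978 CPM in WT-TN. The 4 MP libraries lay below the 4 TN libraries, a separation in either direction that 36.6% of all genes showed. Averaged over genotypes, its log2 fold change was −0.37 (SE 0.032, edgeR adjusted p = 1.6e-08), and it fell within mCre (log2 −0.35, SE 0.046, adjusted p = 5.71e-06) and within WT (log2 −0.38, SE 0.046, adjusted p = 1.99e-06). Within single genotypes, edgeR called 32.5% of all genes in mCre and 31.7% in WT.

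Ikzf3, the Aiolos gene, moved the other way. It was at 227 and 221 CPM in mCre-MP and 165 and 159 CPM in mCre-TN, and at 202 and 194 CPM in WT-MP and 164 and 136 CPM in WT-TN. Averaged over genotypes it rose by 0.44 (SE 0.048, edgeR adjusted p = 1.27e-06). It rose within mCre by 0.47 (SE 0.067, adjusted p = 4.21e-05) and within WT by 0.40 (SE 0.069, adjusted p = 0.000234). The MP libraries of each genotype lay above its TN libraries, a separation in either direction that 67.1% of all genes showed in mCre and 63.9% in WT.

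Ikzf4, the Eos gene, was at 1.81 and 1.97 CPM in mCre-MP and 4.12 and 3.08 CPM in mCre-TN, and at 1.51 and 1.70 CPM in WT-MP and 3.33 and 3.76 CPM in WT-TN. It fell by 1.04 on average (SE 0.19, edgeR adjusted p = 0.000132), by 0.94 within mCre (SE 0.25, adjusted p = 0.00797) and by 1.15 within WT (SE 0.27, adjusted p = 0.00283). Its MP libraries lay below the TN libraries of both genotypes, a separation in either direction that 36.6% of all genes showed. The mCre-TN and WT-TN libraries overlapped. The call within mCre was lost without mCre-TN replicate 1 (log2 −0.69, adjusted p = 0.138) and without mCre-MP replicate 1 (log2 −0.88, adjusted p = 0.0595).

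Ikzf2 fell by 0.33 on average (SE 0.067, edgeR adjusted p = 0.0005), which is the mean of the −1.01 in mCre and the 0.35 in WT and describes neither genotype. Its MP and TN libraries overlapped when both genotypes were pooled. Ikzf5, the Pegasus gene, lay between 38.9 and 46.4 CPM in all 8 libraries. Its subset difference was 0.048 (SE 0.052, edgeR adjusted p = 0.482), and it passed the test in neither genotype (adjusted p = 0.927 in mCre and 0.424 in WT).

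Averaged over subsets, the genotype difference was called for 0 of the 5 members by edgeR, DESeq2 or limma-voom, where edgeR called 10.9% of all genes. At an unadjusted p under 0.05, edgeR gave 1 member higher in mCre, Ikzf3, and 1 lower, Ikzf5. Ikzf3 differed by 0.15 (SE 0.048, adjusted p = 0.0654) and Ikzf5 by −0.15 (SE 0.052, adjusted p = 0.0704). Without WT-TN replicate 1, in which Ikzf3 was at 164 CPM against 136 CPM in the other WT-TN library, both passed (Ikzf3 0.21, adjusted p = 0.00193; Ikzf5 −0.18, adjusted p = 0.0421). Ikzf1 differed by 0.046 (SE 0.032, adjusted p = 0.417), Ikzf4 by 0.14 (SE 0.19, adjusted p = 0.704) and Ikzf2 by −0.11 (SE 0.067, adjusted p = 0.329), the last again a mean of opposite values.

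Within single subsets, where Ikzf2 was not tested, edgeR called 0 of the 4 relatives between mCre and WT. In MP, where the background was 4.04% of all genes, adjusted p was 0.548 for Ikzf1, 0.167 for Ikzf3, 0.732 for Ikzf4 and 0.172 for Ikzf5; in TN, with a background of 3.47%, it was 0.803, 0.439, 0.969 and 0.466 in the same order. At an unadjusted p under 0.05 in MP, Ikzf3 was higher and Ikzf5 lower in mCre, and in TN no relative reached it. DESeq2 and limma-voom likewise called none of the 4. A fit of the 2 MP groups alone called Ikzf3 in MP (log2 0.18, adjusted p = 0.0437), as did the fit without WT-TN replicate 2 (0.18, adjusted p = 0.0425) and the fit without the expression filter (0.18, adjusted p = 0.0362). In TN, Ikzf3 was called without WT-TN replicate 1 (0.25, adjusted p = 0.031). Ikzf1, whose UTR holds the miR-29 seed match shown above, differed between genotypes by 0.061 in MP (SE 0.046) and 0.030 in TN (SE 0.046) on the log2 scale.

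The genes whose levels ran most like those of Ikzf2 were sought among 8428 named genes by the correlation of log2 CPM over the 8 libraries. The 8 nearest were Slx1b (r = 0.945), Usp53 (0.918), Cryzl1 (0.914), Dtymk (0.913), Dnajc3 (0.904), Cd99l2 (0.902), Aoc2 (0.896) and Ttf1 (0.895). In 6 genes r reached 0.9, and in another 6 it was −0.9 or below. Libraries of a group share their genotype and subset, and the genes were picked as the highest of a long search, so r is given as a description with n = 8. Their differences between groups were far smaller than those of Ikzf2. Cd99l2, a membrane protein gene, came closest, at 7.25 ± 1.15 CPM in mCre-MP, 10.7 ± 0.513 CPM in mCre-TN, 9.24 ± 1.04 CPM in WT-MP and 8.88 ± 0.712 CPM in WT-TN, with a difference of differences of −0.61 on the log2 scale. Dtymk, which encodes the thymidylate kinase of nucleotide synthesis, had −0.18, and Dnajc3, an endoplasmic reticulum co-chaperone gene, −0.11. Of the relatives, Ikzf1 had r = 0.383 with Ikzf2, Ikzf4 0.306, Ikzf5 0.141 and Ikzf3 −0.474.

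**Figure D4:**
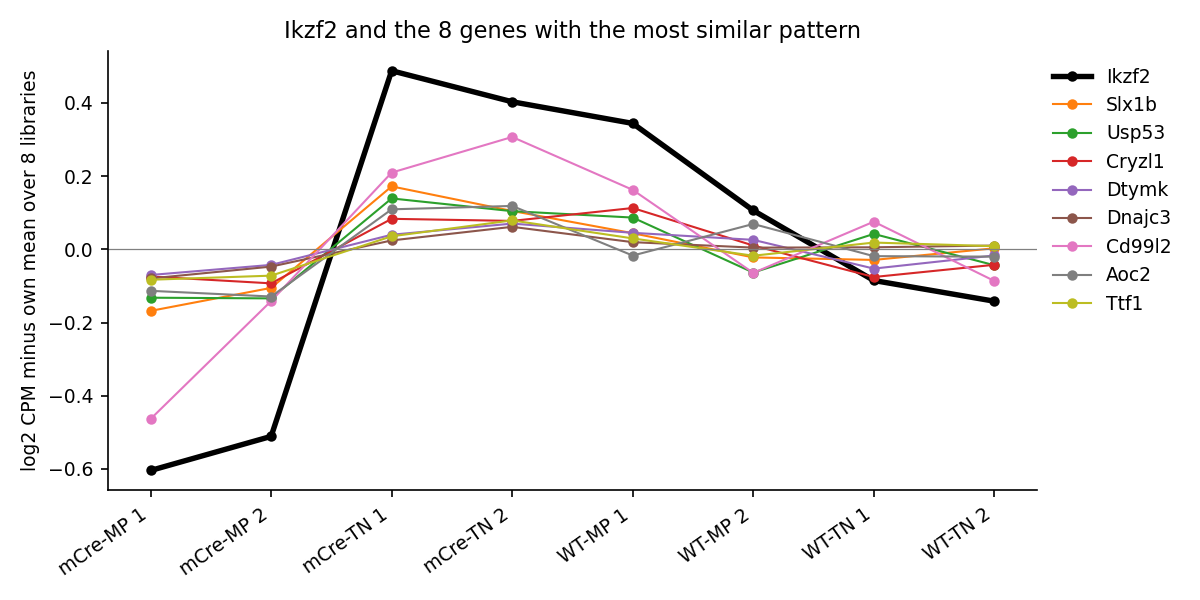
Log2 CPM of Ikzf2 (black) and of the 8 genes with the highest correlation to it, each minus its own mean over the 8 libraries; lines only join the points of a gene. The genes share low values in the mCre-MP libraries and high values in the mCre-TN libraries, with a difference of differences from −0.11 to −0.61 against −1.35 for Ikzf2.

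Of the genes of complexes that Ikaros family proteins work with, those of the corepressors and of SWI/SNF that passed the test between subsets were lower in MP, and about as many did not pass. Of 17 genes of the NuRD, Sin3 and CtBP corepressors, edgeR called 10 lower and 0 higher in MP averaged over genotypes, with a median of −0.16 on the log2 scale, against 22% lower and a median of −0.0022 over all genes. DESeq2 and limma-voom gave the same counts, and at an unadjusted p under 0.05 there were 12 lower and 0 higher. Mta3, a NuRD subunit, fell by 0.46 (SE 0.039, edgeR adjusted p = 8.37e-09). Its level was 128 ± 1.67 CPM in mCre-MP and 176 ± 9.68 CPM in mCre-TN, and 122 ± 5.61 CPM in WT-MP and 169 ± 1.40 CPM in WT-TN. Gatad2b fell by 0.38, Chd4, the remodelling ATPase of NuRD, by 0.31 and the methyl-binding Mbd2 by 0.27. Of 13 SWI/SNF subunits, 7 fell and 0 rose (6 and 0 with DESeq2, 7 and 0 with limma-voom and at an unadjusted p under 0.05; median −0.10), among them Arid1b (−0.32), Smarca2 (−0.28), Arid1a (−0.25) and Arid2 (−0.20). Some of these SWI/SNF calls were lost without mCre-MP replicate 1. Within WT alone edgeR called 3 of the 13 lower, against 15.6% of all genes lower in MP within WT. Of 5 subunits of the CRL4-cereblon ubiquitin ligase, which degrades Ikaros and Aiolos in human cells given thalidomide analogues, only Cul4a passed the test (−0.18, adjusted p = 0.0041; median 0.02 over the 5).

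Between genotypes few genes of these lists were called. Averaged over subsets, 0 of the 17 corepressor genes were called by edgeR, DESeq2 or limma-voom (1 lower at an unadjusted p under 0.05), against a background of 10.9%. Of the 13 SWI/SNF genes, Arid2 was called (0.17, adjusted p = 0.0346), and of the ligase genes Crbn, the cereblon gene itself (0.15, adjusted p = 0.0192). Crbn is named here after its values were seen. DESeq2 made neither call. That of Arid2 was lost with any of 5 libraries left out (adjusted p 0.076 to 0.175) and that of Crbn with any of 4 (0.0665 to 0.0916).

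**Figure D5:**
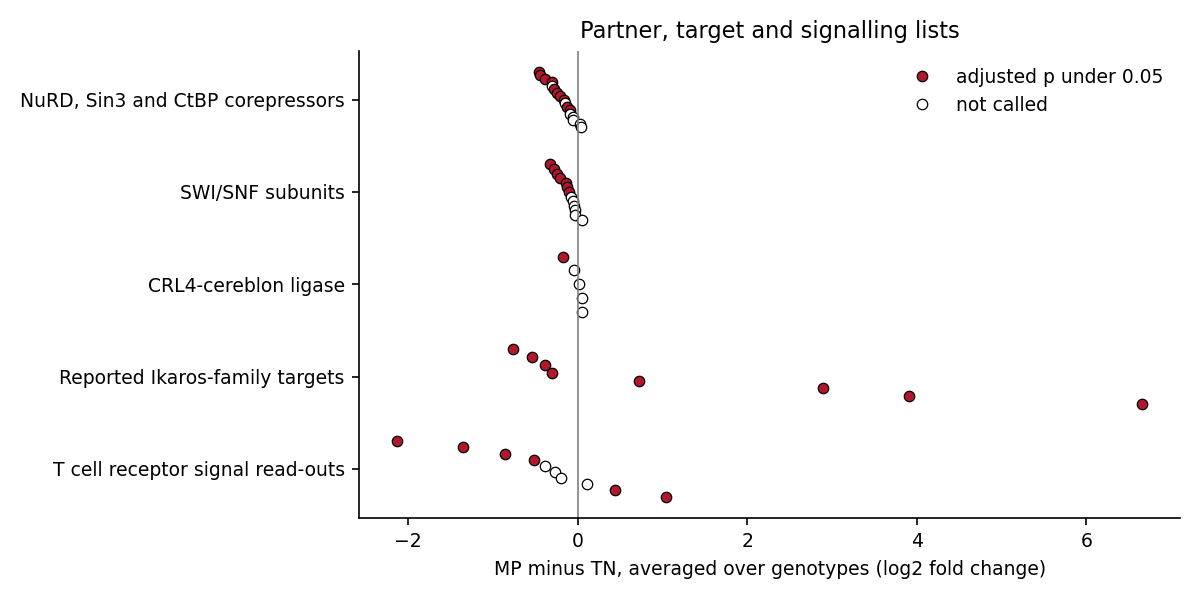
Log2 fold change of MP minus TN averaged over genotypes for each tested gene of 5 lists; filled points passed an edgeR adjusted p of 0.05. Called genes of the corepressor and SWI/SNF lists lie left of 0, while those of the target list fall on both sides, from Ifng at 6.66 to Dtx1 at −0.77. Ifng passed the expression filter through the MP groups, so its direction was fixed by that filter.

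Genes reported as targets of Ikaros family proteins in mouse T cells split evenly between subsets. Of 13 listed, 8 passed the filter on low counts, which genes high in 1 subset pass through that subset, and 4 of these rose and 4 fell in MP, against 23.3% higher and 22% lower of all genes. Ifng, the effector cytokine that Ikaros represses, was at 28.9 ± 2.42 CPM in mCre-MP and 0.184 ± 0.029 CPM in mCre-TN, and at 31.3 ± 5.94 CPM in WT-MP and 0.504 ± 0.333 CPM in WT-TN (log2 6.66, SE 0.19). It is among the 4 that rose, but it passed the filter through the MP groups. Its direction between subsets was therefore fixed by the filter and is given with no test. Tbx21, which encodes T-bet, rose by 3.91, Prdm1, which encodes Blimp-1, by 2.89 and Gata3 by 0.73. Dtx1, a Notch-induced gene (−0.77), Notch1 (−0.54), Bcl6 (−0.38) and Tcf7 (−0.30) fell. Il2, Il10, Hes1, Ptcra and Notch3 stayed under the filter, with 13, 11, 22 and 3 counts of Il2 in mCre-MP, mCre-TN, WT-MP and WT-TN. Between genotypes, averaged over subsets, edgeR and limma-voom called 0 of the 8 and DESeq2 1, against a background of 10.9%; at an unadjusted p under 0.05, 2 were higher and 2 lower.

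Helios is induced by strong T cell receptor signals, and read-outs of such signals moved both ways. Of 10 genes, 4 fell and 2 rose in MP (median −0.33), against 22% lower and 23.3% higher of all genes. Egr3 fell by 2.14, Egr2 by 1.35, Cd5 by 0.86 and Egr1 by 0.51, while Pdcd1 rose by 1.04 and Cd69 by 0.44. Between genotypes, Cd69, an early activation marker, was at 149 ± 1.34 CPM in mCre-MP, against 113 ± 7.92 CPM in WT-MP, and at 102 ± 2.01 CPM in mCre-TN, against 90.1 ± 0.280 CPM in WT-TN. It rose in mCre on average (0.29, edgeR adjusted p = 7.38e-05), also with any library left out. Pdcd1 (0.63) and Irf4 (0.87), the second named after its values were seen, were called as well, which made 3 of 10 against a background of 10.9%. The call of Pdcd1 was lost with any of 6 libraries left out (adjusted p 0.0521 to 0.127) and that of Irf4 with any of 5 (0.0781 to 0.144).

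Markers of other cells that carry Helios or its relatives are given beside the Ikzf2 levels. Foxp3, the defining gene of regulatory T cells, had 46, 79, 31 and 64 counts in mCre-MP, mCre-TN, WT-MP and WT-TN, or 1.09 ± 0.089, 1.53 ± 0.283, 0.696 ± 0.252 and 1.88 ± 0.987 CPM. Within single subsets, edgeR, DESeq2 and limma-voom called 0 of the 8 tested markers between mCre and WT. The edgeR background was 4.04% of all genes in MP and 3.47% in TN, so 0 of 8 says little about these markers. Foxp3 differed by 0.65 in MP and −0.32 in TN (adjusted p = 0.512 and 0.741) and Nrp1, named after its values were seen, by −0.35 in MP and 0.79 in TN (adjusted p = 0.644 and 0.214). At an unadjusted p under 0.05, 1 of the 8 reached it in MP and 4 in TN. The share of all genes that reached it is not given here, so nothing is read from these counts. Lrrc32 had 2, 1, 2 and 1 counts in mCre-MP, mCre-TN, WT-MP and WT-TN and was not tested. The summed level of the 9 regulatory T cell markers was 55.6 to 63.9 CPM in mCre-MP, 45.4 to 50.9 CPM in mCre-TN, 60.8 to 61.5 CPM in WT-MP and 53.2 to 55.4 CPM in WT-TN. Most of that sum was Tnfrsf18, at group means of 36.6 to 42.8 CPM. CPM are not scaled by gene length, so these levels are not ranked against that of Ikzf2. Averaged over genotypes, 4 of the 8 tested rose in MP (Entpd1, Ctla4, Tigit and Il2ra) and 1 fell (Foxp3, log2 −0.996), against 23.3% higher and 22% lower of all genes. The Foxp3 call was lost without mCre-TN replicate 1 (adjusted p = 0.0539) and without WT-TN replicate 2 (adjusted p = 0.139). Between genotypes, 1 was higher (Il2ra) and 2 were lower (Entpd1 and Tnfrsf18) in mCre, calls lost with any of 6, 4 and 6 libraries left out, against a background of 10.9%. The part of these markers in the Ikzf2 levels was not tested.

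Zbtb16, which encodes PLZF, the factor of innate-like T cells, was listed with the fetal and neonatal lymphocyte genes. It had 12 counts in mCre-MP, against 73 in WT-MP, and 0 counts in mCre-TN, against 4 in WT-TN. It passed the expression filter through WT-MP, the group where it was high, so its counts are given with no test. Of the other tested genes of that list, Arid3a rose in MP (1.11). Igf2bp2 (−0.22, edgeR adjusted p = 0.291) and Igf2bp3 (−0.61, edgeR adjusted p = 0.121) pointed the other way and were not called. Lin28b, a defining fetal gene, had 3, 0, 8 and 1 counts in mCre-MP, mCre-TN, WT-MP and WT-TN and was not tested. The part of these genes in the Ikzf2 levels was not tested.

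The other marker lists gave these counts in MP against TN by edgeR, beside 23.3% higher and 22% lower of all genes. Of 4 CD8+ T cell markers, Cd8a (0.13) and Cd3d (0.12) rose and Cd3e (−0.13) fell. The Cd3d call was lost with any of 4 libraries left out (adjusted p 0.0578 to 0.0706). Of the NK and innate lymphoid markers, Klrb1c had 87 counts in mCre-MP and 0 in mCre-TN, and 108 in WT-MP and 0 in WT-TN. Ncr1 had 18 counts in mCre-MP and 0 in mCre-TN, and 20 in WT-MP and 0 in WT-TN. Both passed the filter through the MP groups, so the direction between subsets was fixed by it and is given with no test. Of 3 tested B cell markers 0 were called by edgeR, DESeq2 or limma-voom, also at an unadjusted p under 0.05, with a summed level of 16.6 to 21.2 CPM in all libraries. Of 5 myeloid markers 0 were called between subsets by any of these tools or at an unadjusted p under 0.05, and 2, Csf1r and Adgre1, were lower in mCre than in WT (−1.32 and −1.15). The Adgre1 call was lost with any of 7 libraries left out (adjusted p 0.054 to 0.294). Zbtb7b of the CD4+ T cell markers rose (3.27), and of the markers listed for plasmacytoid dendritic cells Bst2 rose while Ccr9 and Tcf4 fell. Sox13 of the gamma-delta T cell markers had 13 counts in mCre-MP and 120 in mCre-TN, and 6 in WT-MP and 51 in WT-TN. It passed the filter through the TN groups, so its direction between subsets was likewise fixed and is given with no test. Of 2 tested erythroid markers 0 were called between subsets by any tool or at an unadjusted p under 0.05. Between genotypes, Tcf4, Bst2 and the erythroid Hba-a1 were called higher in mCre, and each of these calls was lost with some library left out. The part of these marker genes in the family's differences was not tested. Among the named genes, Foxp3 overlaps Ccdc22 and Ppp1r3f, Crbn overlaps Trnt1, Csf1r overlaps Hmgxb3, Slx1b overlaps Bola2, Cryzl1 overlaps Atp5o and Ccr9 overlaps Lztfl1, so their counts may include reads of a neighbour.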

How the data were processed

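The authors deposited a single table of raw counts, not normalized, with a line for each gene symbol. Trim Galore, HISAT2 and featureCounts and the build mm10 are named in the submitters' processing notes; versions, annotation, strand setting and treatment of multiply mapping reads were not given in the sources used here. Depth lay between 13479586 and 30057658 counts a library.

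Testing used edgeR (version 4.0.16, under R 4.3.3) and its quasi-likelihood F test, with trimmed-mean scaling, robust dispersions, edgeR's expression filter and a mean for each of the 4 groups in 1 fit of 8 libraries. Tests were two-sided, with Benjamini-Hochberg adjustment over 12313 genes and a threshold of 0.05. SEs are the log2 fold change divided by the root of its F value. DESeq2 1.42.0 and limma-voom (limma 3.58.1) were alternatives, beside other scalings, other filters, the replicate number as a block, fits of 2 groups and each library left out. The procedure was tested on simulated data. CPM are scaled by the trimmed mean, and the prior count for log2 CPM was 2. Levels per length used the union of exons of GENCODE M21 on GRCm38, the assembly called mm10, and 3' UTRs came from its transcripts. The 8 nearest genes to Ikzf2 by Pearson r had a mean log2 CPM of at least 3; per list, up to 4 genes with the smallest p between subsets were eligible to be named. The members and lists were chosen with earlier results of these data known. Some listed marker genes are not reported here.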

Additional observations from a re-analysis of the deposited data

Results flagged for a closer look

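Ikzf2 stood out because its genotype effects pointed in opposite directions: both mCre libraries lay below both WT libraries in MP and above both in TN, with a difference of differences of −1.35 on the log2 scale. The difference was not tested, since the gene was chosen by it, and with 2 libraries per group the pattern rests on 8 values.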

How the results depend on the processing

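Over 7 other settings, the averaged subset differences of Ikzf1, Ikzf2, Ikzf3 and Ikzf4 kept their direction and passed the test, also with each library left out, and that of Ikzf5 did not pass. For Ikzf2 that average describes neither genotype, and its p-values are not free of the choice of the gene. The Ikzf2 difference of differences lay between −1.37 and −1.34 in these settings and between −1.47 and −1.24 with single libraries left out, the ends being without WT-MP replicate 2 and replicate 1. The Ikzf3 genotype difference passed without the expression filter (0.15, adjusted p = 0.00449), and it ranged from 0.077 to 0.21 with single libraries left out; that of Ikzf5 ranged from −0.19 to −0.12. With the replicate number as a block, the Ikzf3 genotype difference passed (0.15, adjusted p = 0.0231). The labels do not say whether same-numbered libraries belong together. The correlation of their deviations from the group means lay between −0.045 and 0.11, which cannot settle that. Under the replicate block, edgeR called 1498 genes between genotypes averaged over subsets, against 1342 without it. No other averaged difference of a member changed its call under the replicate block. Values near 0 changed sign: Ikzf5 between subsets in mCre (−0.022 with total counts only, −0.052 to 0.073 with libraries left out), and between genotypes in TN Ikzf4 (−0.20 to 0.21) and Ikzf3 (−0.023 to 0.25), and the Ikzf3 difference of differences (−0.081 to 0.20). The causes were not tested. The number of genes called in the whole table was 16 for the difference of differences, but 81 without the filter, 26 with DESeq2, 7 with limma-voom and 9 to 32 with libraries left out. Between genotypes it was 498 in MP and 427 in TN, but 888 and 783 without the filter and as few as 195 and 204 with a library left out; averaged over subsets it was 1342, and as few as 755. With the longest transcript as length, the order of levels was the same. Ikzf4, with 33 to 126 counts per library, is limited by depth.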
